A study of Mus musculus with 18 samples.

Results

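Brevican, neurocan, versican and aggrecan, together with the link proteins and tenascins that bind them, form the hyaluronan matrix between cells of the brain. The genes followed here are the 4 lectican genes Acan, Bcan, Ncan and Vcan, the link protein genes Hapln1, Hapln2 and Hapln4, and the tenascin genes Tnr and Tnc. They were taken by gene symbol and are 9 of the 54446 genes in the count table. Each symbol was found once. The lecticans are chondroitin sulfate proteoglycans whose one end binds hyaluronan and whose other end binds tenascins. Link proteins clamp a lectican to hyaluronan, and tenascin-R ties lecticans to each other. In the cortex these parts later condense into perineuronal nets, lattices that surround mainly fast-spiking interneurons. In the young brain neurocan and tenascin-C are widespread, much of them made by astrocytes and their precursors.

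The RNA came from 6 mice of the outbred CD-1 stock, whose neocortex was collected at postnatal day 7. At E14.5, in mid-neurogenesis, the ventricular wall had been electroporated with Gfp cDNA and either an empty plasmid (GFP, 3 mice), human FOXP2 cDNA (huFOXP2, 2 mice) or mouse Foxp2 cDNA (moFoxp2, 1 mouse). Gfp was thus given to all 3 groups, and no group was left without electroporation. From 300 µm sagittal sections, the upper layers 2-3 (L2-3), the input layer 4 (L4) and the deep layers 5-6 (L5-6) were dissected, and the pieces of a mouse pooled, giving 18 libraries. The labels call the cells of L4 GFP-positive and those of L2-3 and L5-6 GFP-negative, name no promoter for the plasmids, and call L2-3 as well as L5-6 infragranular. The huFOXP2 and moFoxp2 mice were joined as 3 FOXP2 mice, because 1 moFoxp2 mouse gives no spread. The tissue holds all cell types of each slice, so fewer cells of a type and less RNA per cell cannot be told apart.

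Library totals lay between 10111149 and 23404528 counts. Foxp2 itself, read first as a check of the labels, stood at 1.77 to 6.54 CPM (the count scaled by library size) in L2-3 of GFP mice and at 20.2 to 52.3 CPM in L2-3 of FOXP2 mice. In L4 the ranges were 5.39 to 8.75 CPM in GFP mice and 33.3 to 64.9 CPM in FOXP2 mice. Human FOXP2 reads enter this count as far as they align to the mouse gene. In L5-6, where Foxp2 is a native gene of layer 6 neurons, the ranges overlapped. They were 52.5 to 68.6 CPM in GFP mice and 39.6 to 77.8 CPM in FOXP2 mice. The groups were thus apart in L2-3 as well as in L4, although the labels call the cells of L2-3 GFP-negative. Whether introduced FOXP2 was present in cells of L2-3 cannot be told from these data. Layer markers set L5-6 apart: 9 of 9 layer 6 and subplate markers were higher, and 6 of 6 layer 2-3 markers lower, in L5-6 than in L2-3. They separated L2-3 from L4 less well, since 1 of 6 layer 2-3 markers was higher and 0 lower in L4, and their sums overlapped at 1090 to 1520 CPM in L2-3 and 1200 to 1600 CPM in L4. The summed layer 4 markers reached 248 to 386 CPM in L4, 101 to 283 CPM in L2-3 and 104 to 269 CPM in L5-6. GFP mouse 1 stood apart from the other GFP mice. Its 6 pairs with replicate libraries had a chi-square per degree of freedom of 23.5 to 54.3. The 6 pairs without it, of GFP or huFOXP2 mice, had 8.89 to 12.4. The moFoxp2 mouse has no replicate and so could not be judged in this way. Fitted results are given with and without GFP mouse 1 where they rest on it.

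All 9 genes are protein-coding. In mm10 coordinates Bcan lies at chr3:87987531-88000230 and Hapln2 at chr3:88021750-88027583, both on the minus strand. Ncan (chr8:70093085-70120873, minus strand) neighbours Hapln4 (chr8:70083457-70090862, plus strand), and Vcan (chr13:89655312-89742509, minus strand) neighbours Hapln1 (chr13:89539796-89611652, plus strand). Acan (chr7:79053483-79115099, plus strand) neighbours Hapln3, the link protein gene outside the set. In each of these 4 pairs a lectican gene sits beside a link protein gene with 0 protein-coding genes between them, at 0.003 kb for Acan and Hapln3, 2.22 kb for Ncan and Hapln4, 21.5 kb for Bcan and Hapln2 and 43.7 kb for Vcan and Hapln1. Tnr lies at chr1:159523769-159931729 on the plus strand and Tnc at chr4:63959785-64047015 on the minus strand. Exons of Tnr share 443 bases with Gm38039 and exons of Tnc share 176 bases with 8030451A03Rik. Reads in those stretches cannot be assigned with certainty, since no source used here says whether the counting used strand.

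The 250 bases before the RefSeq start site (GRCm38.p6) are shown for 4 genes. These are Ncan and Tnc, which moved together over the libraries, and Tnr and Acan, which were highest in L5-6. A link between these bases and the RNA levels was not tested. The bases are read 5′ to 3′ on the strand of the gene, and capitals mark the letters TATAAA or their reverse complement TTTATA.
Ncan (chr8:70120845-70121094, minus strand): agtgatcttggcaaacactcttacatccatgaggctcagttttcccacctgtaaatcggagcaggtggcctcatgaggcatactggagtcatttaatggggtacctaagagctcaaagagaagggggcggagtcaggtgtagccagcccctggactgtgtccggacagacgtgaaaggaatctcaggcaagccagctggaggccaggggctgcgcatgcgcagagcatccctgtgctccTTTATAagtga
Tnc (chr4:64047016-64047265, minus strand): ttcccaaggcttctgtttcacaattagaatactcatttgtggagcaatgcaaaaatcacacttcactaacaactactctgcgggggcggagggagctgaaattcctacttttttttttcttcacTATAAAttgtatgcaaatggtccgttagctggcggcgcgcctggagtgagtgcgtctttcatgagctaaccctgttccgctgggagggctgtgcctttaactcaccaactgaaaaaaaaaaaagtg
Tnr (chr1:159523519-159523768, plus strand): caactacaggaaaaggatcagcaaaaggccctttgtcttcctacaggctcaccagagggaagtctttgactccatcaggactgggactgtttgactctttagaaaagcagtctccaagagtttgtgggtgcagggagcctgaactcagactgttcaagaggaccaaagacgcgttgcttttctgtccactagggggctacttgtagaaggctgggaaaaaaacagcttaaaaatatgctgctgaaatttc
Acan (chr7:79052976-79053225, plus strand): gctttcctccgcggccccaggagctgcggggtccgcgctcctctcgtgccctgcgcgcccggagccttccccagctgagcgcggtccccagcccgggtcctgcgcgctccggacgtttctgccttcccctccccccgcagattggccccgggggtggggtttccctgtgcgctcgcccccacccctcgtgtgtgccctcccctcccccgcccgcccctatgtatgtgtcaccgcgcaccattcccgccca

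TATAAA was found on the gene strand of Tnc, starting 126 bases before the start site of the window shown. In the window of Ncan the gene strand holds the reverse complement TTTATA, starting 11 bases before the start site. A second RefSeq window of Tnc (chr4:64046937-64047186) overlaps the first and holds TATAAA 205 bases before its start site. The letters were in none of the windows of Bcan, Vcan, Acan, Hapln1, Hapln2 and Tnr. It occurs on either strand in 12.4% of 32851 windows of this length. The 7 letters TGTTTAC, the core bound by forkhead proteins such as FOXP2, occur in 3.17% of all windows on either strand, and the FOXP2 element CAAATT in 9.8%. Neither was present in the windows of the 8 genes that have one in the table. The window of Acan is 74.4% G and C, the Tnc windows 44.8% and 51.2%, against a median of 52.4% over all windows.

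Per kilobase of exon, neurocan was the most abundant of the 9 transcripts and the link protein gene Hapln2 the least. The mean over 18 libraries was 147.9 CPM per kb for Ncan and 94.6 CPM per kb for Bcan. Tnr (17.2 CPM per kb), Tnc (14.0), Vcan (8.90) and Hapln1 (7.62) formed a middle group. Acan, the main proteoglycan of adult perineuronal nets, reached 0.892 CPM per kb, and Hapln4, a link protein best known from hindbrain synapses, 0.627 CPM per kb. Ncan exceeded Bcan, Bcan exceeded Tnr, and Hapln1 exceeded Acan in 18 of 18 libraries. The order inside the middle group did not hold across libraries: Tnr exceeded Tnc in 12, Tnc exceeded Vcan in 14 and Vcan exceeded Hapln1 in 8 of 18. Acan exceeded Hapln4 in 12 of 18.

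**Figure D1:**
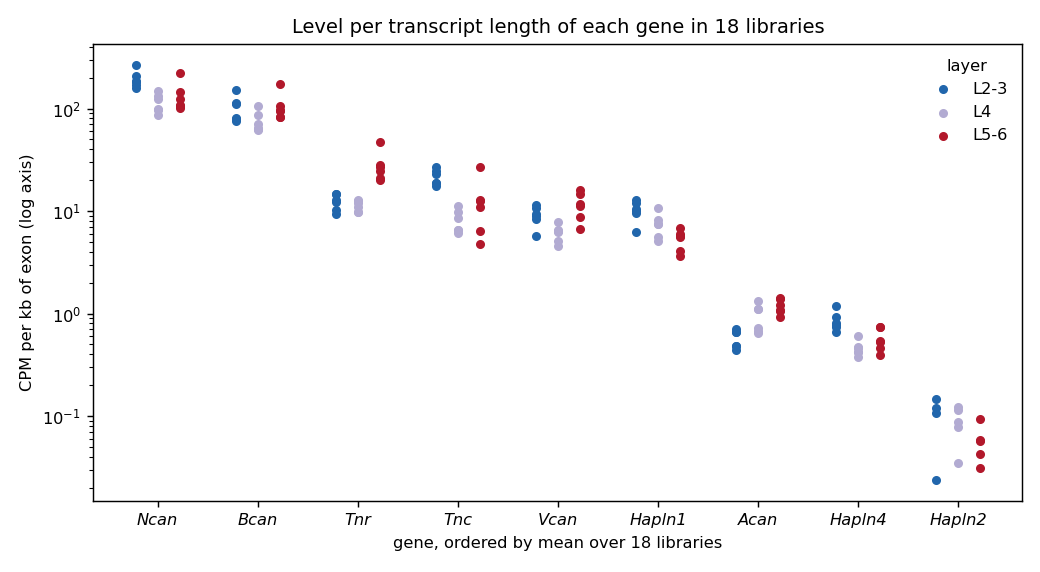
Level of each gene in 18 libraries, as CPM per kb of exon on a log axis, with 1 point per library coloured by layer and genes ordered by their mean. Ncan and Bcan lie above all other genes in every library, Tnr and Tnc trade places between layers, and 4 libraries with 0 counts of Hapln2 cannot be drawn on this axis.

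Hapln2, a link protein of myelinated fibres, was at the limit of detection. Its 18 libraries held 40 counts in all, 0 to 6 in each, with 14 in L2-3, 15 in L4 and 11 in L5-6, and 4 libraries had 0. A floor of 3 counts corresponds to 0.128 to 0.297 CPM in these libraries. Hapln2 did not pass the filter on low counts and is in no test, so 8 of the 9 genes were tested.

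Layers differed for most of the matrix genes. Between L5-6 and L2-3, Acan and Tnr were higher and Ncan, Hapln1, Hapln4 and Tnc lower in L5-6, that is 6 of 8 tested members (edgeR quasi-likelihood test with the mouse as a block, adjusted p under 0.05), where 38.2% of all genes tested passed (18.9% higher, 19.3% lower). Between L4 and L2-3, 7 of 8 passed, with Acan higher and Bcan, Ncan, Vcan, Hapln1, Hapln4 and Tnc lower in L4, where 35.4% of all genes passed (16.3% higher, 19.1% lower). Between L5-6 and L4, 5 of 8 passed, with Acan, Bcan, Vcan and Tnr higher and Hapln1 lower in L5-6, where 34.8% of all genes passed (18.6% higher, 16.2% lower). The median log2 fold change of the 8 members was -0.26, -0.52 and 0.42 in the 3 contrasts, while that of all genes was 0.0037, 0.035 and 0.0081. DESeq2 also passed 6, 7 and 5 members.

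The fold changes had the same sign in all 6 mice for 4 of 8 members between L5-6 and L2-3, for 7 of 8 between L4 and L2-3 and for 3 of 8 between L5-6 and L4. Among all genes tested, the same was true of 27.3%, 37.2% and 37.6%. The libraries of the 2 layers did not overlap at all for 2, 3 and 1 of the 8 members, against 11.8%, 11.2% and 10.5% of all genes.

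**Figure D2:**
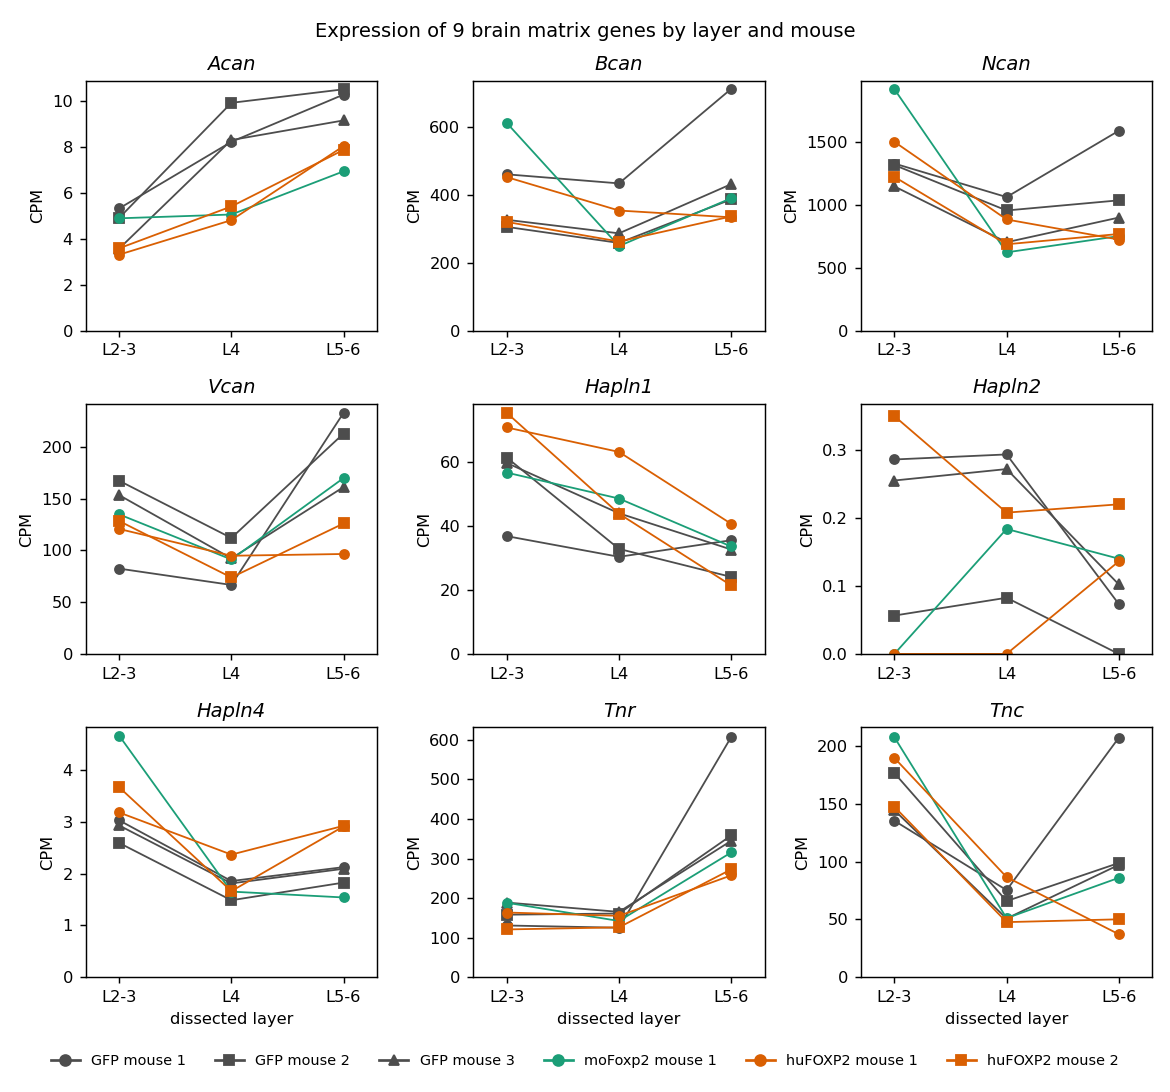
CPM of each of the 9 genes in the dissected layers, with 1 line per mouse (black GFP, green moFoxp2, orange huFOXP2). Acan climbs from L2-3 to L5-6 in every mouse, Tnc drops from L2-3 to L4 in every mouse, Tnr is highest in L5-6 in every mouse, and GFP mouse 1 lies above the others in L5-6 for Bcan, Ncan, Tnr and Tnc.

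Aggrecan rose with depth. Acan in L2-3 was 5.31, 4.90 and 3.57 CPM in the GFP mice, 4.88 CPM in the moFoxp2 mouse and 3.31 and 3.58 CPM in the huFOXP2 mice. In L4 it was 8.21, 9.90 and 8.29 CPM in GFP mice, 5.05 CPM in the moFoxp2 mouse and 4.80 and 5.40 CPM in huFOXP2 mice. In L5-6 it was 10.3, 10.5 and 9.14 CPM in GFP mice, 6.93 CPM in the moFoxp2 mouse and 8.02 and 7.86 CPM in huFOXP2 mice. Every mouse ran in the order L2-3, L4, L5-6, and no L5-6 library overlapped the range of L2-3. On the log2 scale Acan was 1.05 ± 0.13 (SE) higher in L5-6 than in L2-3 (adjusted p = 2.27e-05) and 0.69 ± 0.13 higher in L4 than in L2-3 (adjusted p = 0.00144). The step from L4 to L5-6 was 0.36 ± 0.13 (adjusted p = 0.0405) and missed the threshold without GFP mouse 1 (0.37, adjusted p = 0.0609), without huFOXP2 mouse 1 (0.29, 0.127) and without huFOXP2 mouse 2 (0.32, 0.121). In GFP mice alone it was 0.17 (adjusted p = 0.397), and in FOXP2 mice alone the step from L2-3 to L4 was 0.37 (adjusted p = 0.124).

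Neurocan was highest in L2-3. Ncan ranged there from 1149 to 1923 CPM with a median of 1325 CPM, in L4 from 624 to 1064 CPM with a median of 795 CPM, and in L5-6 from 726 to 1592 CPM with a median of 835 CPM. All L4 libraries lay below all L2-3 libraries, whereas L5-6 overlapped L2-3 through GFP mouse 1 alone, the mouse at 1592 CPM. Ncan fell by 0.81 ± 0.16 in L4 against L2-3 (log2, adjusted p = 0.00177) and by 0.60 ± 0.16 in L5-6 against L2-3 (adjusted p = 0.00947). Without GFP mouse 1 the second difference was -0.77 (adjusted p = 0.000765), and in GFP mice alone it was -0.15 (adjusted p = 0.429). The L4 difference in GFP mice alone was -0.50 (adjusted p = 0.0501).

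Brevican had its lowest median in L4. Bcan had a median of 390 CPM in L2-3 (306.0 to 612 CPM), 275 CPM in L4 (249 to 434 CPM) and 389 CPM in L5-6 (334 to 713 CPM), with all 3 ranges overlapping. It fell by 0.42 ± 0.15 in L4 against L2-3 (log2, adjusted p = 0.0411) and rose by 0.47 ± 0.15 from L4 to L5-6 (adjusted p = 0.0256), while L5-6 and L2-3 differed by 0.05 ± 0.15 (adjusted p = 0.817). That last value joins mice that differ in direction: it was 0.45 in GFP mice alone (adjusted p = 0.00373) and -0.36 in FOXP2 mice alone (adjusted p = 0.115). The drop in L4 missed the threshold on leaving out any mouse but GFP mouse 1. Without the moFoxp2 mouse it was -0.24 (adjusted p = 0.16), without huFOXP2 mice 1 and 2 -0.44 (0.0562) and -0.45 (0.0852), and without GFP mice 2 and 3 -0.45 (0.0738) and -0.45 (0.0614). In GFP mice alone it was -0.18 (adjusted p = 0.239). The L4 to L5-6 rise missed it when huFOXP2 mouse 2 (0.50, adjusted p = 0.0565), GFP mouse 2 (0.45, 0.073) or GFP mouse 3 (0.46, 0.0705) was left out, and in FOXP2 mice alone (0.30, 0.243).

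Versican had its low point in L4. Vcan ranged from 82.4 to 167 CPM in L2-3 (median 132 CPM), from 66.6 to 112 CPM in L4 (median 91.8 CPM) and from 96.5 to 233 CPM in L5-6 (median 166 CPM). L4 overlapped both other layers, although Vcan was lower in L4 than in L2-3, and lower in L4 than in L5-6, within 6 of 6 mice. The log2 difference was -0.56 ± 0.18 for L4 against L2-3 (adjusted p = 0.0234) and 0.90 ± 0.18 for L5-6 against L4 (adjusted p = 0.002), and 0.34 ± 0.18 for L5-6 against L2-3 (adjusted p = 0.147). Without GFP mouse 1 the last was 0.092 (adjusted p = 0.516). The L4 against L2-3 difference missed the threshold when huFOXP2 mouse 2 (-0.51, adjusted p = 0.0849), the moFoxp2 mouse (-0.56, 0.0715), or GFP mouse 2 or 3 (-0.55, 0.0708, and -0.51, 0.0765) was left out, and in GFP mice alone (-0.56, 0.207). In huFOXP2 mouse 1 the step from L4 to L5-6 was only 0.03 on the log2 scale, from 94.8 to 96.5 CPM.

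Of the link protein genes, Hapln1 and Hapln4 were highest in L2-3. Hapln1, the main link protein of cortical nets, had 36.7 to 75.2 CPM in L2-3 (median 60.4 CPM), 30.3 to 63.0 CPM in L4 (median 43.8 CPM) and 21.4 to 40.6 CPM in L5-6 (median 33.04 CPM). It was lower in L5-6 than in L2-3 in 6 of 6 mice, by 0.05 on the log2 scale in GFP mouse 1 and by up to 1.79 in huFOXP2 mouse 2, and the fitted difference was -0.94 ± 0.16 (adjusted p = 0.000338; -1.12 without GFP mouse 1). The 2 single steps, -0.48 ± 0.16 from L2-3 to L4 (adjusted p = 0.0298) and -0.46 ± 0.16 from L4 to L5-6 (adjusted p = 0.0381), were less secure. Leaving out GFP mouse 2 (-0.38, adjusted p = 0.124) or 3 (-0.47, 0.0754), huFOXP2 mouse 2 (-0.41, 0.0583) or the moFoxp2 mouse (-0.53, 0.0566) left the first short of the threshold. The second missed it on leaving out any mouse but GFP mouse 1, with values of -0.36 to -0.46 and adjusted p of 0.0801 (GFP mouse 2), 0.0998 (GFP mouse 3), 0.0934 (huFOXP2 mouse 1), 0.0829 (huFOXP2 mouse 2) and 0.0927 (moFoxp2 mouse). In GFP mice alone both missed it (-0.56, 0.153, and -0.21, 0.486), as did the first in FOXP2 mice alone (-0.41, 0.0592).

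Hapln4 had 2.59 to 4.67 CPM in L2-3 (median 3.11 CPM), 1.49 to 2.37 CPM in L4 (median 1.74 CPM) and 1.54 to 2.92 CPM in L5-6 (median 2.11 CPM). No L4 library reached the range of L2-3, and the log2 difference was -0.87 ± 0.17 (adjusted p = 0.00177). In L5-6 it was lower than in L2-3 in 6 of 6 mice, by 0.57 ± 0.17 (adjusted p = 0.0144), a difference that missed the threshold without the moFoxp2 mouse (-0.38, adjusted p = 0.0505), in GFP mice alone (-0.50, 0.0757) and in FOXP2 mice alone (-0.62, 0.0925). The L4 difference missed it in GFP mice alone (-0.73, 0.0573). Hapln3, the link protein gene beside Acan, was likewise lower in L4 than in L2-3 (-0.52 ± 0.12, adjusted p = 0.00482) and differed by -0.27 ± 0.12 between L5-6 and L2-3 (adjusted p = 0.0806).

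The tenascins went opposite ways between the outer and the deep layers. Tnr in L2-3 was 131, 158 and 189 CPM in GFP mice, 188 CPM in the moFoxp2 mouse and 163 and 121 CPM in huFOXP2 mice. In L4 it was 125, 161 and 165 CPM in GFP mice, 142 CPM in the moFoxp2 mouse and 155 and 126 CPM in huFOXP2 mice. In L5-6 it was 607, 358 and 345 CPM in GFP mice, 315 CPM in the moFoxp2 mouse and 257 and 273 CPM in huFOXP2 mice. All L5-6 libraries exceeded all others, and L2-3 and L4 overlapped. Tnr was 1.16 ± 0.17 higher in L5-6 than in L2-3 (log2, adjusted p = 8.13e-05) and 1.27 ± 0.17 higher than in L4 (adjusted p = 0.000106), and 0.92 and 1.05 higher without GFP mouse 1, the mouse at 607 CPM. L4 and L2-3 differed by -0.11 ± 0.16 (adjusted p = 0.624).

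Tnc in L2-3 was 135, 177 and 145 CPM in GFP mice, 208 CPM in the moFoxp2 mouse and 190 and 148 CPM in huFOXP2 mice. In L4 it was 75.3, 65.9 and 50.7 CPM in GFP mice, 51.0 CPM in the moFoxp2 mouse and 86.6 and 47.6 CPM in huFOXP2 mice. In L5-6 it was 207, 98.8 and 97.2 CPM in GFP mice, 86.0 CPM in the moFoxp2 mouse and 37.1 and 50.1 CPM in huFOXP2 mice. L4 lay wholly below L2-3, while L5-6 spread from below the lowest L4 library nearly to the top of L2-3. The L4 against L2-3 difference was -1.45 ± 0.28 (log2, adjusted p = 0.00138) and passed the threshold under all 12 alternative settings. The L5-6 against L2-3 difference was -0.93 ± 0.28 (adjusted p = 0.0171) and missed the threshold without GFP mouse 2 (-0.93, adjusted p = 0.0518), huFOXP2 mouse 2 (-0.80, 0.0785) or the moFoxp2 mouse (-0.85, 0.0617), and in GFP mice alone (-0.27, 0.439). L5-6 against L4 gave 0.52 ± 0.28 (adjusted p = 0.164), 0.81 without huFOXP2 mouse 1 (0.0173), and 1.03 in GFP mice alone (0.0168).

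**Figure D3:**
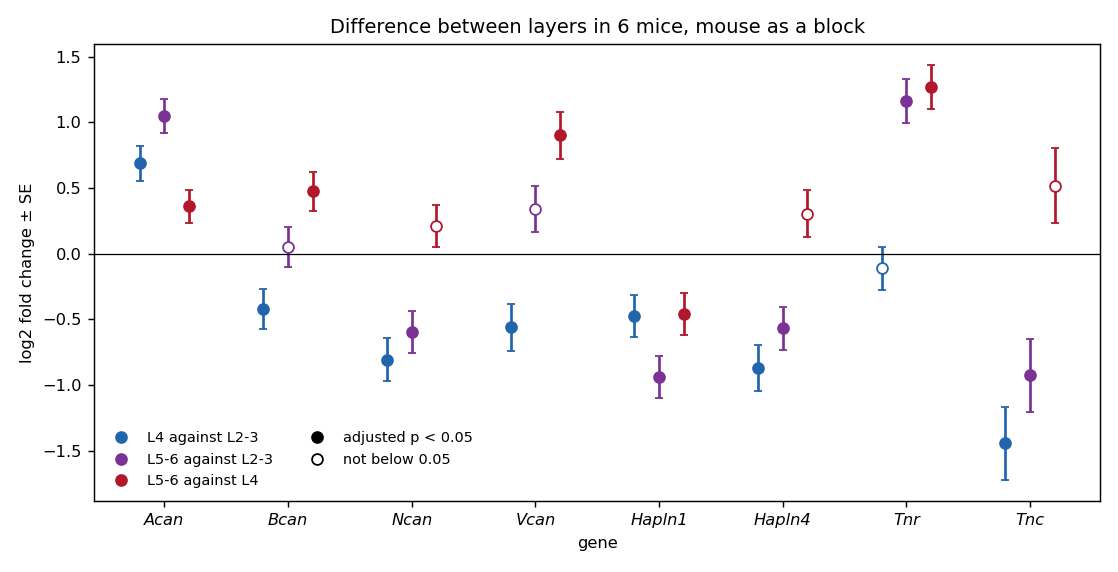
Log2 fold change ± SE of each of the 8 tested genes in the 3 layer contrasts over 6 mice, filled where the adjusted p was under 0.05. Acan and Tnr lie above 0 for L5-6 against L2-3 (1.05 and 1.16), Hapln1 and Tnc below (-0.94 and -0.93), and Tnc has the lowest value of the plot in L4 against L2-3 (-1.45).

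The make-up of the matrix RNA by layer was followed as ratios per kilobase inside each library, with no test beyond those of the single genes. The ratio of Tnr to Tnc was 0.494 to 0.788 in L2-3, 1.0 to 1.97 in L4 and 1.77 to 4.19 in L5-6, and it ran in that order in each of the 6 mice. Neurocan made up a median of 63.5% of lectican RNA in L2-3, 56.7% in L4 and 53.1% in L5-6, and brevican 32.9%, 39.8% and 42.7%. The ratio of Ncan to Bcan fell from a median of 1.93 in L2-3 to 1.41 in L4 and 1.24 in L5-6, in the same order in all 6 mice. Versican made up 2.98%, 3.35% and 4.47% and aggrecan 0.188%, 0.435% and 0.514%. Vcan and its neighbour Hapln1 were near parity in L2-3 (median ratio 0.944) and L4 (0.813), and Vcan was ahead in L5-6 (2.24), with huFOXP2 mouse 1 the exception at 0.971.

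**Figure D4:**
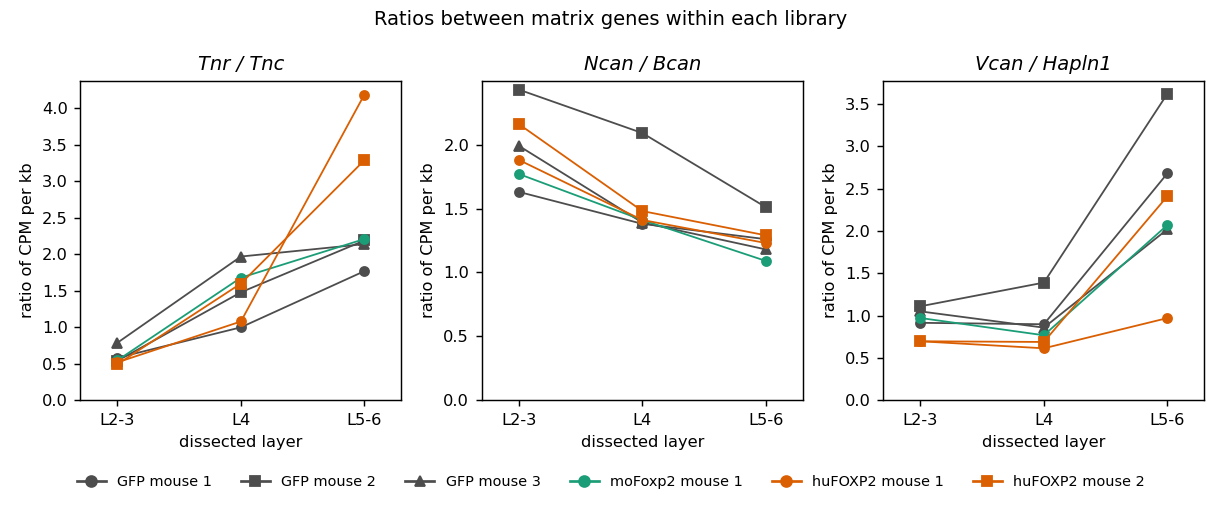
Ratios of CPM per kb between pairs of matrix genes in each library, by dissected layer, with 1 line per mouse. Tnr to Tnc climbs from below 1 in L2-3 to 1.77 or more in L5-6, Ncan to Bcan declines with depth in all 6 mice, and Vcan to Hapln1 is highest in L5-6.

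Over the 18 libraries, which share mice and layers, Ncan and Tnc were the most alike pair of members (Pearson r of log2 CPM = 0.924, Spearman rho = 0.907). Vcan went with Tnr (r = 0.769) and Bcan with Ncan (r = 0.724), while Acan ran against Hapln1 (r = -0.843). The genomic neighbours Ncan and Hapln4 had r = 0.63, and Vcan and Hapln1 r = -0.105. Among 11620 genes with a mean of at least 5 CPM, the closest to Tnr were Ugt8a and Fa2h (r = 0.961 each), enzymes that make myelin lipids, and Myrf (0.958), the transcription factor of myelinating oligodendrocytes. Their Spearman rho with Tnr was lower, at 0.847, 0.905 and 0.862. Both Tnr and the summed myelinating oligodendrocyte markers were highest in the L5-6 library of GFP mouse 1. The correlations are given over all 18 libraries only, with that mouse included. Closest to Ncan were Tpcn1 (0.95), Ppp2r5a (0.941) and Nes (0.94), and to Tnc Tpcn1 (0.926), Nes and Fbln2 (0.923 each). Nes encodes nestin, an intermediate filament of neural precursors and reactive or immature astrocytes. Closest to Hapln1 were Tmem263 (0.938) and the transcription factor gene Prox1 (0.936), followed by Adarb2 (0.915), a marker of interneurons from the caudal ganglionic eminence. Acan was closest to Clgn (0.941), to Adamts20 (0.919), a secreted metalloprotease gene, and to Kif1a (0.916), an axonal transport motor gene. Bcan was closest to Adgrg1 (0.965), Vcan to Scaf11 (0.917) and Hapln4 to Mmrn2 (0.871).

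Markers of glia and of the brain surface differed between layers too, though not all in the same way as the matrix genes. The summed markers of myelinating oligodendrocytes (8 genes, none at 0 in any layer) were 190 to 308 CPM in L2-3, 140 to 252 CPM in L4 and 786 to 3450 CPM in L5-6, where GFP mouse 1 was highest, and 6 of 7 tested were higher in L5-6 than in L2-3. Oligodendrocyte precursor markers were 529 to 848 CPM, 434 to 648 CPM and 687 to 1370 CPM, with 4 of 6 higher in L5-6 than in L2-3. Astrocyte markers were 3040 to 5030 CPM, 2220 to 3210 CPM and 2890 to 5350 CPM, with 6 of 10 lower and 2 of 10 higher in L4 than in L2-3, Gfap being lower by 3.34 on the log2 scale. These astrocyte sums overlapped between all 3 layers. Markers of meningeal fibroblasts were 350 to 2020 CPM in L2-3, 22.2 to 84.8 CPM in L4 and 35.7 to 51.5 CPM in L5-6, with 9 of 9 higher in L2-3 than in L4. The part of these cell types in the layer differences of the matrix genes was not tested.

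Genes that build, modify and cut this matrix passed in both directions between L5-6 and L2-3. Of all genes tested, 18.9% were higher and 19.3% lower in that contrast. Of the hyaluronan genes, 2 of 11 tested were higher and 5 lower in L5-6 than in L2-3. Has3, a hyaluronan synthase, was lower by 1.32 on the log2 scale (adjusted p = 3.41e-06) and the hyaluronidase gene Hyal2 by 0.71 (1.87e-06), while the hyaluronan receptor gene Cd44 was higher by 0.82 (0.00126). Of the genes for chondroitin sulfate chains, 5 of 21 were higher and 4 lower. Xylt1, which starts the chain, was higher by 0.59 (adjusted p = 0.00014) and Csgalnact1, which commits it to chondroitin, by 0.46 (0.00083). Dse, the epimerase that turns chondroitin into dermatan sulfate, was lower by 1.43 (1.38e-06).

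Of the proteases that cut lecticans and their inhibitors, 4 of 14 were higher and 5 lower in L5-6 than in L2-3. The shares over all genes were 18.9% higher and 19.3% lower. Adamts4, an aggrecanase also made by myelinating oligodendrocytes, was higher by 2.08 (adjusted p = 0.000252), whereas another lectican-cleaving protease gene, Adamts15, was lower by 0.92 (0.000483). Mmp2 was lower by 1.82 (6.06e-05). Of the chain receptors and other net components, 2 of 12 were higher and 4 lower. Cntn1, a neuronal partner of tenascin-R, was higher by 0.45 (0.000241), and Sema3a, a guidance cue that binds to nets, was lower by 0.69 (8.97e-05). Of the remaining proteoglycans and related genes, 1 of 10 was higher, the receptor-type proteoglycan gene Ptprz1 (0.36, 0.00938), and 3 were lower, among them the fibroblast proteoglycan gene Dcn (-7.10, 6.27e-09). Medians of the 5 lists lay between -0.23 and 0.0063, against 0.0037 over all genes tested.

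Between L4 and L2-3 the same 5 lists had 0 higher and 5 lower of 11, 1 and 5 of 21, 2 and 7 of 14, 4 and 3 of 12, and 2 and 4 of 10. The shares over all genes were 16.3% higher and 19.1% lower. Between L5-6 and L4 the lists had 2 higher and 3 lower, 4 and 3, 3 and 2, 2 and 5, and 2 and 4. There the shares over all genes were 18.6% higher and 16.2% lower. Chst3, the sulfotransferase that makes chondroitin 6-sulfate, was higher in L5-6 than in L4 by 1.65 (adjusted p = 0.000223), and the tenascin-C receptor gene Itga9 was higher by 1.18 (0.00065) after being lower in L4 than in L2-3 by 1.02 (0.00141).

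Next, FOXP2 mice were set against GFP mice within each layer, which asks whether the matrix genes differed between these groups. None of the 8 tested members passed in any layer, 0 of 8 by edgeR and 0 of 8 by DESeq2. In L2-3, 0.0722% of all genes tested passed, in L4 0.0275% and in L5-6 0.0196%. At an unadjusted p under 0.05, members numbered 0 in L2-3, 2 in L4 and 6 in L5-6, where 15.8%, 3.14% and 6.17% of all genes had such a p. Without the filter on low counts, edgeR called Hapln1 in L4 (0.54, adjusted p = 0.0177) and Ncan (-0.64, 0.0264), Vcan (-0.62, 0.026), Tnr (-0.62, 0.0302) and Tnc (-1.21, 9.63e-05) in L5-6, where it called 189 of 27668 genes in L4 and 323 of 29074 in L5-6. A difference that misses the threshold with 3 mice against 3 is not shown to be absent.

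In L5-6, 6 of the 8 members had values below 0, with a median log2 fold change of -0.59 against -0.0062 over all genes. Tnc was 207, 98.8 and 97.2 CPM in GFP mice and 86.0, 37.1 and 50.1 CPM in the FOXP2 mice, with a log2 fold change of -1.23 ± 0.38 (unadjusted p = 0.0124, adjusted p = 0.713 by edgeR). Ncan was 1592, 1038 and 901 CPM in GFP mice and 753, 726 and 770.0 CPM in FOXP2 mice (-0.66 ± 0.21, adjusted p = 0.713). Tnr was 607, 358 and 345 CPM in GFP mice and 315, 257 and 273 CPM in FOXP2 mice (-0.65 ± 0.23, adjusted p = 0.713). The groups did not overlap for these 3 genes or for Acan, 4 of 8 members, where 13.5% of all genes did not overlap. Vcan (-0.64 ± 0.22), Bcan (-0.54 ± 0.23) and Acan (-0.40 ± 0.15) also lay below 0, while Hapln1 (0.04 ± 0.24) and Hapln4 (0.29 ± 0.31) did not.

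Much of the size in L5-6 came with GFP mouse 1. Without it the values were -0.77 for Tnc, -0.37 for Ncan, -0.32 for Tnr, -0.52 for Vcan and -0.21 for Bcan, while Acan stayed at -0.37. In that layer GFP mouse 1 also had the highest sums of astrocyte (5350 CPM), oligodendrocyte precursor (1370 CPM), myelinating oligodendrocyte (3450 CPM) and microglia (763 CPM) markers. Its endothelial and pericyte sum (652 CPM) and striatal sum (217 CPM) were the highest too. The lowest sums of layer 2-3 (412 CPM), layer 4 (104 CPM) and layer 5 (252 CPM) markers were also those of GFP mouse 1. Its layer 6 (757 CPM) and interneuron (361 CPM) sums were not the lowest. Astrocyte sums were 2890 to 5350 CPM in GFP and 3510 to 3840 CPM in FOXP2 mice, and precursor sums 760 to 1370 CPM and 687 to 778 CPM. Myelinating oligodendrocyte sums were 865 to 3450 CPM in GFP and 786 to 1420 CPM in FOXP2 mice. The sums of ependyma and choroid plexus markers did not overlap, at 14.4 to 40.5 CPM in GFP mice, with GFP mouse 1 highest, and 3.22 to 11.4 CPM in FOXP2 mice. Their part in the differences was not tested.

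In L4, the layer whose cells are labelled GFP-positive, Acan had the lowest log2 fold change of the 8 tested members, without passing the threshold. It was 8.21, 9.90 and 8.29 CPM in GFP mice and 5.05, 4.80 and 5.40 CPM in FOXP2 mice, so that the groups did not overlap. The log2 fold change was -0.79 ± 0.18 (unadjusted p = 0.00149, adjusted p = 0.674), and -0.82 without GFP mouse 1. The moFoxp2 mouse and both huFOXP2 mice lay on the same side. Acan was the only member whose L4 groups did not overlap, 1 of 8, a count near the share of 7.67% over all genes. Its groups did not overlap in L5-6 either. Hapln3, its neighbour outside the set, also did not overlap in L4, at 5.28 to 6.94 CPM in GFP and 4.46 to 4.85 CPM in FOXP2 mice. Hapln1 was 30.3, 32.8 and 43.9 CPM in GFP mice and 48.5, 63.0 and 43.7 CPM in FOXP2 mice (0.53 ± 0.18, unadjusted p = 0.0144, adjusted p = 1.0), with overlapping groups. Interneuron markers of all types together summed to 325 to 428 CPM in GFP and 450.0 to 475 CPM in FOXP2 mice in L4. Layer 5 markers summed to 138 to 270.0 CPM and 148 to 189 CPM, and layer 6 markers to 220.0 to 226 CPM and 134 to 178 CPM. Layer 2-3 markers summed to 1200 to 1490 CPM in GFP and 1500 to 1600 CPM in FOXP2 mice, and striatal markers to 158 to 198 CPM in GFP mice and to more, up to 235 CPM, in FOXP2 mice. The layer 4 markers themselves summed to 307 to 386 CPM in GFP and 248 to 385 CPM in FOXP2 mice. Sums of the glial, vascular, meningeal and ependymal lists overlapped between the groups. Their part in the Acan values was not tested.

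In L2-3 the largest value among the members was that of Hapln4, 3.03, 2.59 and 2.93 CPM in GFP mice and 4.67, 3.18 and 3.67 CPM in FOXP2 mice (0.41 ± 0.24, adjusted p = 0.448). Its groups did not overlap, the only such case among the 8 members, where 20.6% of all genes did not overlap. Hapln1 (0.36 ± 0.20), Bcan (0.33 ± 0.24), Ncan (0.28 ± 0.16) and Tnc (0.25 ± 0.15) lay above 0, and Acan (-0.24 ± 0.25), Vcan (-0.08 ± 0.23) and Tnr (-0.02 ± 0.18) below. Meningeal fibroblast markers in L2-3 summed to 350 to 1090 CPM in GFP and 1340 to 2020 CPM in FOXP2 mice without overlap, as did those of endothelial cells and pericytes at 642 to 774 CPM and 901 to 1310 CPM. The sums of ependyma and choroid plexus markers, 3.12 to 4.0 CPM and 4.54 to 19.0 CPM, did not overlap either. Upper-layer neuron markers were apart the other way, with layer 2-3 markers at 1370 to 1520 CPM in GFP and 1090 to 1150 CPM in FOXP2 mice and layer 4 markers at 162 to 283 CPM and 101 to 106 CPM. The other neuron lists overlapped. In GFP and FOXP2 mice, interneuron markers were 295 to 380 CPM and 373 to 467 CPM, and layer 5 markers 75.4 to 148 CPM and 123 to 136 CPM. Layer 6 markers were 127 to 171 CPM and 127 to 198 CPM, and striatal markers 171 to 197 CPM and 128 to 189 CPM. Astrocyte markers were 3040 to 3600 CPM in GFP and 3430 to 5030 CPM in FOXP2 mice. Their part in the L2-3 values was not tested.

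**Figure D5:**
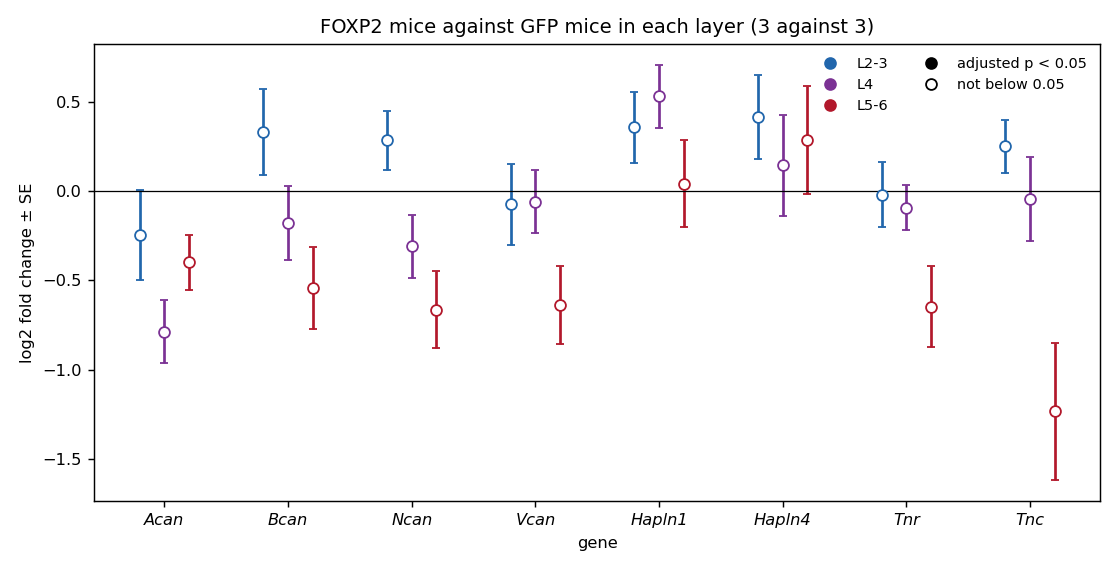
Log2 fold change ± SE of FOXP2 against GFP mice for the 8 tested genes in each layer, 3 mice against 3, with open symbols because no adjusted p was under 0.05. Tnc in L5-6 (-1.23) and Acan in L4 (-0.79) have the lowest values, and the L2-3 values of Ncan, Bcan and Tnc lie above 0 where their L5-6 values lie below it.

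Because those signs differ between layers, an interaction test, blocked on mouse, compared the difference between FOXP2 and GFP mice in 1 layer with that in another. These contrasts share their libraries with the comparisons above. For L5-6 minus L2-3, Ncan (-0.89 ± 0.22, adjusted p = 0.0195), Bcan (-0.81 ± 0.21, adjusted p = 0.0246) and Tnc (-1.40 ± 0.39, adjusted p = 0.0321) passed, 3 of 8 members and all lower. Of all genes tested 14.9% passed, 6.53% with a higher and 8.41% with a lower value. Within a mouse, the log2 ratio of L5-6 to L2-3 for Ncan was 0.26, -0.35 and -0.35 in GFP mice, -1.35 in the moFoxp2 mouse and -1.05 and -0.67 in huFOXP2 mice. For Bcan it was 0.63, 0.34 and 0.40 in GFP mice, -0.65 in the moFoxp2 mouse and -0.44 and 0.07 in huFOXP2 mice. For Tnc it was 0.61, -0.84 and -0.57 in GFP mice, -1.27 in the moFoxp2 mouse and -2.34 and -1.55 in huFOXP2 mice.

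The interaction calls were not firm. Without GFP mouse 1 the values were -0.70 for Ncan (adjusted p = 0.06), -0.74 for Bcan (0.0688) and -0.98 for Tnc (0.0984), and without huFOXP2 mouse 1 they were -0.88 (0.0758), -0.77 (0.089) and -1.14 (0.0906), with 0 of 8 members passing in either case. Bcan and Tnc also missed the threshold without GFP mouse 3 (-0.84, 0.0689, and -1.56, 0.0632), Tnc without huFOXP2 mouse 2 (-1.46, 0.0792) and Ncan without the moFoxp2 mouse (-0.71, 0.0503). With no block on mouse, 0 of 8 members and 0 genes passed. Vcan (-0.64 ± 0.30, adjusted p = 0.157) and Tnr (-0.59 ± 0.28, adjusted p = 0.165) were below 0 too, as were Acan (-0.15), Hapln1 (-0.35) and Hapln4 (-0.12). Without GFP mouse 1 Vcan was -0.22, Tnr -0.19 and Hapln1 -0.013. Astrocyte markers passed in the same contrast in 6 of 10 cases, all lower with a list median of -0.80, and precursor markers in 3 of 6, all lower with a median of -0.76. Markers of endothelial cells and pericytes passed in 5 of 8, all lower. Upper-layer neuron markers passed the other way, 5 of 6 layer 2-3 markers higher with a list median of 0.72 and 2 of 6 layer 4 markers higher. Other neuron lists did not share this. Interneuron markers passed in both directions, Npy lower (-0.82, adjusted p = 0.0126), Vip (1.17, 0.0333) and Kcnc1 (0.43, 0.0386) higher. The striatal markers Adora2a (-1.31, 0.0151) and Rgs9 (-0.70, 0.0236) passed lower. The nearest layer 5 marker, Fezf2 (1.19, 0.0654), and layer 6 marker, Ctgf (-1.30, 0.0584), missed the threshold. The part of these cells in the interaction was not tested.

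For L4 minus L2-3, 0 of 8 members passed, by edgeR as by DESeq2, where 0.0% of all genes passed by edgeR. Unadjusted p values under 0.05 were found for Ncan (-0.57 ± 0.22), Acan (-0.56 ± 0.23) and Bcan (-0.47 ± 0.21), 3 of 8 against 17.5% of all genes. The other genes of the matrix lists passed in L5-6 minus L2-3 as follows: 1 higher and 2 lower of 11 hyaluronan genes, 0 and 4 of 21 chain genes, 0 and 5 of 14 proteases and inhibitors, 3 and 2 of 13 receptors and net components, and 0 and 2 of 10 remaining proteoglycans and related genes. Of all genes, 6.53% passed higher and 8.41% lower in that contrast. In the comparisons of FOXP2 with GFP mice inside a layer, 0 genes of these 5 lists passed.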

How the data were processed

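The read aligner STAR, the counter HTSeq and the mouse build mm10 are named, per the submitters' processing notes. Tool versions, gene models and strand settings were not given in the sources. The authors deposited raw read counts per gene, 54446 genes in 18 libraries, without normalization. Of the gene IDs, 54409 matched GENCODE M21 without the version suffix and 53229 with it, and that annotation gave positions and exon lengths. Promoter windows are from RefSeq (GRCm38.p6), which held 8 of the 9 genes (Hapln4 was not matched). Groups and mice come from the sample titles.

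The main test was edgeR's quasi-likelihood test (edgeR 4.0.16, R 4.3.3) on counts scaled by TMM and filtered by filterByExpr (minimum count 10, minimum total 15), with Benjamini-Hochberg adjustment over all genes tested and a threshold of 0.05. Layers were compared over all 18 libraries with the mouse as a block, and FOXP2 against GFP mice within a layer without it. The change of that FOXP2 against GFP difference between layers was tested with the block. CPM are counts over the TMM-scaled library total, and correlations used log2(CPM + 0.5). The SE is the fold change divided by the root of F. Ratios and CPM per kb use the union of annotated exons. The scripts were tested on simulated counts.

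Libraries of 1 mouse deviated together from their group means (correlation 0.262 to 0.673, above 0.1 in 18 of 18 pairs, 15952 genes). GFP and huFOXP2 mice share only a number (-0.283 to 0.179, above 0.1 in 2 of 6 pairs), so it pairs no constructs. No replicate pair was a copy of another. The labels do not say whether mice came from separate litters.

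The alternatives were DESeq2 1.42.0, RLE size factors, no filter on low counts, other blocks, subsets of mice, and each mouse left out. The rule for named genes took the 9 members, Foxp2, Hapln3, up to 3 genes per direction from each pathway list and up to 2 per marker list (smallest adjusted p), and the 3 genes most like each member. Members and lists were chosen with earlier results of these data known.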

Additional observations from a re-analysis of the deposited data

Results flagged for a closer look

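In L5-6, GFP mouse 1 stood far above the other 5 mice for 4 of the matrix genes. The gap to the next mouse was 0.742 of the whole range for Bcan, 0.712 for Tnr, 0.64 for Ncan and 0.637 for Tnc, each above Dixon's critical value of 6 samples. Of 24 groups of 6 libraries (8 genes in 3 layers) these 4 were far from the rest, all the same library. Chance alone puts about 1 in 20 independent groups past that value. That rate cannot be applied here, since the genes share libraries and each group joins GFP with FOXP2 mice. The same library had the highest astrocyte, oligodendrocyte and microglia marker sums of its layer. It also had the lowest sums of layer 2-3, layer 4 and layer 5 neuron markers. The part of these cell types was not tested.

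The difference between FOXP2 and GFP mice was lower in L5-6 than in L2-3 for Ncan (-0.888 on the log2 scale), Bcan (-0.809) and Tnc (-1.40). The test was the interaction test of edgeR with the mouse as a block, which 14.9% of all genes passed. Foxp2 itself overlapped between the groups in L5-6, at 52.5 to 68.6 CPM in GFP and 39.6 to 77.8 CPM in FOXP2 mice. In L2-3 it did not overlap, at 1.77 to 6.54 CPM in GFP and 20.2 to 52.3 CPM in FOXP2 mice. Foxp2 passed the same interaction test, at -2.72 on the log2 scale (adjusted p = 0.0084). The part of the introduced FOXP2 and of cell make-up in this contrast was not tested. Of the 3 genes none passed without GFP mouse 1 or without huFOXP2 mouse 1.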

How the results depend on the processing

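Between layers, Acan, Hapln1 and Tnr (L5-6 against L2-3), Tnc (L4 against L2-3), and Vcan and Tnr (L5-6 against L4) passed under all 12 alternatives tried, and no member changed sign with RLE size factors. In GFP mice alone, 3691 genes passed between L5-6 and L2-3 (6096 with all mice), 1018 genes and 2 members between L4 and L2-3 (5649 and 7), and 3593 genes between L5-6 and L4 (5558), where FOXP2 mice alone gave 3177. In FOXP2 mice alone Bcan reversed to -0.36 between L5-6 and L2-3 and Tnc to -0.11 between L5-6 and L4. Leaving out 1 mouse gave 4 to 6, 4 to 7 and 2 to 4 members called in the 3 contrasts, 3695 to 7275 genes for L4 against L2-3 (3695 without the moFoxp2 mouse), and -0.067 to 0.21 for Bcan between L5-6 and L2-3.

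Without a replicate block, L5-6 against L4 gave 3563 genes and 2 members, and the L5-6 minus L2-3 interaction 0 genes and 0 members (2436 and 3 with it). There Bcan (-0.87, adjusted p = 0.214), Ncan (-0.94, 0.111) and Tnc (-1.48, 0.107) missed the threshold, and Vcan reversed to 0.0097 for L4 minus L2-3. Among layer contrasts without the block, Bcan (-0.42, 0.135) and Hapln1 (-0.45, 0.0854) missed it for L4 against L2-3, as did Acan (0.35, 0.173), Bcan (0.50, 0.0787) and Hapln1 (-0.48, 0.0721) for L5-6 against L4. Pairing GFP and huFOXP2 mice 1 and 2 by number as a replicate block gave 69 genes in L4 (5 in the same mice with no block), 45 genes and 1 member, Tnc, in L5-6 (2 genes and 0 members) and 0.070 for Vcan in L2-3. The same mice with no block gave 7 genes and -0.0018 for Bcan in L2-3.

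For FOXP2 against GFP, genes called in L2-3 (11) became 755 with DESeq2, 865 with no filter, 43 in 1 fit of 18 libraries and 4 with RLE. In L4 (4) they became 32 with DESeq2 and 189 with no filter, and in L5-6 (3) 56, 323 and, in 1 fit, 17. With no filter 1 member (Hapln1) passed in L4 and 4 (Ncan, Vcan, Tnr, Tnc) in L5-6. The L5-6 minus L2-3 interaction then held 5 members among 3550 of 32664 genes. For L4 minus L2-3, 0 genes became 526 with DESeq2, 1326 and 2 members with no filter, and 1 with RLE, and Vcan reversed to 0.016 with no filter. Leaving out 1 mouse gave 3 to 195 genes in L2-3 (195 without GFP mouse 1), 1 to 3414 genes (1 without huFOXP2 mouse 1) and 0 to 3 members for L5-6 minus L2-3, and 0 to 14 genes for L4 minus L2-3.

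Members whose sign turned on leaving out 1 mouse, none of them called, ranged as follows. In L2-3 Vcan ran from -0.33 to 0.11 and Tnr from -0.17 to 0.13. In L4 Bcan ran from -0.35 to 0.088, Vcan from -0.23 to 0.12, Hapln4 from -0.053 to 0.24 and Tnc from -0.37 to 0.11. In L5-6 Hapln1 ran from -0.17 to 0.27. For L5-6 minus L2-3 Acan ran from -0.32 to 0.090 and Hapln4 from -0.41 to 0.29. For L4 minus L2-3 Vcan ran from -0.12 to 0.11, Hapln1 from -0.024 to 0.36 and Tnr from -0.16 to 0.064. The cause of these changes was not tested. Depth limits what can be said of Hapln2, where 3 counts are 0.128 to 0.297 CPM.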
